A study of Drosophila melanogaster with 8 samples.

Results

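The comparison described here sets enterocytes that made a constitutive activator form of the transcription factor Shavenbaby (Svb) against control enterocytes, across all genes of the deposited count table. It was chosen by its count columns and not by any measured value, and it uses 5 of the 8 libraries of the series: 3 of SvbAct flies and 2 of Ctrl flies. Both groups carried MyoIA-Gal4, an enterocyte driver, together with UAS-GFP and tubGal80TS, a repressor of Gal4 that works at low temperature and fails at high temperature. SvbAct flies carried in addition 1 copy of UAS-SvbACT::GFP, whereas Ctrl flies came from the driver stock mated to the wild-type strain Canton-S, so the transgene and the chromosomes it arrived on differ together between the groups. All flies were virgin females kept for 3 days at room temperature and 6 days at 29 °C, and were 9 days old when the posterior midgut (regions R3 to R5) was dissected from batches of more than 20 animals. Patches of enterocytes held back by a 70 µm strainer were collected, while loose cells passed through. A strain label places the induction in intestinal stem cells. The genotype and the growth protocol name the enterocyte driver, and they are followed here. The remaining 3 libraries, RNAiSvb, expressed a hairpin against svb from the same driver and entered the estimate of the spread; their levels are given for some genes.

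Svb is a zinc-finger protein encoded by the ovo locus. It is made as a long repressor, and small peptides of the tarsal-less gene trigger a partial cleavage by the proteasome that leaves a shorter activator, which is best known for building the actin-rich hairs of the larval epidermis. The midgut epithelium is renewed by intestinal stem cells, whose daughters receive a Notch signal, become enteroblasts and mature into enterocytes, large polyploid cells that secrete digestive enzymes and absorb nutrients. SvbAct supplies the activator directly.

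Each library held 15450011 to 17283691 counts in SvbAct and 17628597 to 19403305 counts in Ctrl. Levels are given as CPM, each count relative to the size of its library after scaling by TMM factors. Enterocyte markers summed to 15697, 17918 and 16844 CPM in the SvbAct libraries and to 20298 and 18612 CPM in the Ctrl libraries, over the 12 in the table. Without mag, a lipase gene that fell, the other 11 summed to 14029, 17111 and 14839 CPM in SvbAct and 13860.2 and 12785 CPM in Ctrl. The markers included Myo31DF, the gene of the driver, at 555, 739.7 and 601 CPM in SvbAct and 806 and 766 CPM in Ctrl. The library SvbAct 2 stood apart from SvbAct 1 and SvbAct 3 on the second principal component of the 5 libraries, which carried 25.5% of the variance, with a score of -39.8 against 22.5 and 32.5. The first component, with 51.1%, separated SvbAct from Ctrl. Svb itself was measured through ovo (chrX:5048273-5070929 in the BDGP6.54 annotation), which stood at 47.9, 82.8 and 43.5 CPM in SvbAct and at 0.481 and 0.121 CPM in Ctrl. The Ctrl values rest on 9 and 2 counts. In RNAiSvb, ovo was not lower than in Ctrl, at 1.82, 1.11 and 2.95 CPM. Reads of the transgene and of the resident gene cannot be told apart at this locus.

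Of 8775 genes tested, 302 passed an adjusted p of 0.05 in edgeR's quasi-likelihood test, which is 3.44% of them. Higher in SvbAct were 171 genes (1.95% of those tested) and lower were 131 (1.49%). Among the 302, the CPM of the groups overlapped for 0 genes. Over all genes tested, 18.7% did not overlap with SvbAct higher and 20% with SvbAct lower. For a gene past the threshold, groups that do not overlap are therefore no further support. The genes that rose had a median log2 fold change of 1.89 and were mostly modest in level, with a median of 46.4 CPM in SvbAct and 10.2 CPM in Ctrl. Those that fell had a median log2 fold change of -1.46, with a median of 32.7 CPM in SvbAct and 84 CPM in Ctrl. In sum, the genes that fell took 27014, 28528 and 35272 CPM of the SvbAct libraries and 97520 and 81802 CPM of the Ctrl libraries. The genes that rose took 21382, 28606 and 21255 CPM in SvbAct and 8305 and 9939 CPM in Ctrl. The count rests heavily on both control libraries: without Ctrl 1 it was 48 (14 higher, 34 lower), and without Ctrl 2 it was 68 (32 higher, 36 lower). The corresponding count was 188 without SvbAct 1 and 197 without SvbAct 2, and all 302 estimates kept their sign in each of these fits. When counts were scaled by library totals alone, 223 of 319 calls were higher, or 69.9% against 56.6%.

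**Figure D1:**
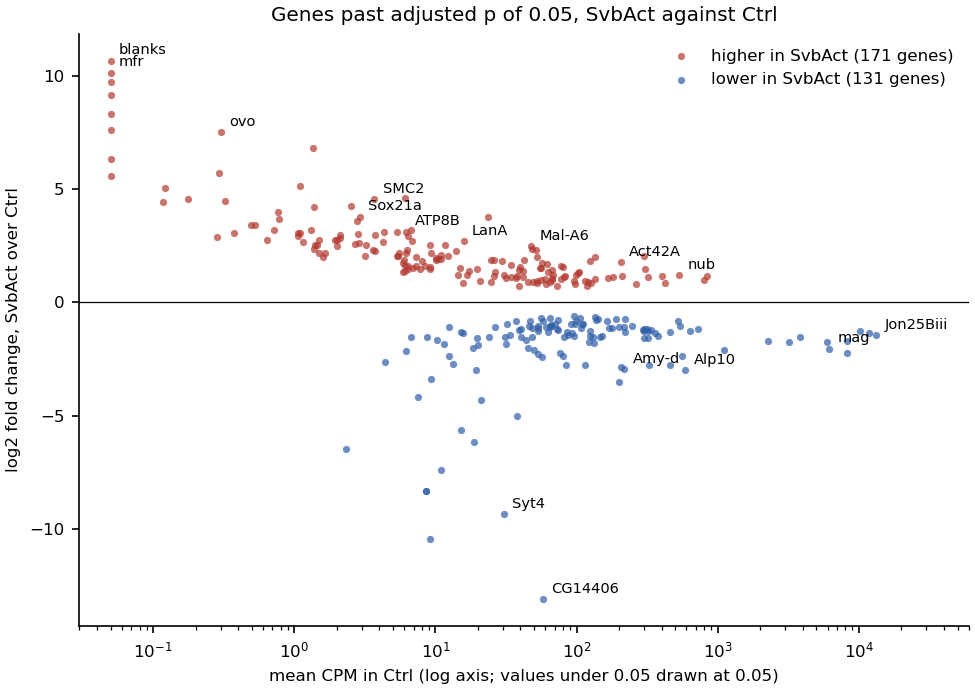
Log2 fold change of SvbAct over Ctrl (vertical axis) against the mean CPM in Ctrl (horizontal log axis) for the 302 genes past the threshold, with 171 higher and 131 lower in SvbAct. The genes that rose extend to the lowest control levels and those that fell lie to the right, towards high control levels. Genes near 0 CPM in Ctrl have little room to fall, and fitted values of genes at 0 in 1 group depend on the prior count.

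Some genes of the Notch pathway and of the early midgut lineage rose. Of 22 Notch pathway genes tested, 5 rose (22.7%, against 1.95% of all genes), and 0 fell. This and the other lists were chosen with earlier results of these data known. A share set against that of all genes is therefore descriptive only. The receptor gene N was found at 25.2, 43.9 and 25.3 CPM in SvbAct and 5.99 and 6.58 CPM in Ctrl, a log2 fold change of 2.32 ± 0.31 (SE; adjusted p = 0.0043). Its ligand gene Delta, a mark of stem cells in this tissue, had 15.4, 29.3 and 22.9 CPM in SvbAct against 5.88 and 5.01 CPM in Ctrl (log2 fold change 2.05 ± 0.35, adjusted p = 0.012). Both lay above both Ctrl libraries in every SvbAct library, as did every gene that rose past the threshold. The glycosyltransferase gene fng, which tunes which ligand Notch answers to, had 35, 44.9 and 29.3 CPM in SvbAct against 3.26 and 5.32 CPM in Ctrl (3.09 ± 0.39, adjusted p = 0.00337). Its exons share 22 bases with CG10589, whose reads cannot be told apart there. The target gene E(spl)mbeta-HLH, a repressor induced by Notch, had 14.3, 20.0 and 13.8 CPM in SvbAct and 3.58 and 1.81 CPM in Ctrl (2.56 ± 0.38, adjusted p = 0.00584). Its neighbour in the same gene complex, E(spl)m3-HLH, had 17.8, 19.7 and 12.4 CPM in SvbAct and 1.76 and 2.42 CPM in Ctrl (2.99 ± 0.61, adjusted p = 0.0254). The median over the whole list was 0.15, against -0.01 over all genes.

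Among 16 transcription factors of stem cells and progenitors, 3 rose (18.75%, against 1.95% of all genes), 0 fell and 6 had estimates below 0 (median 0.14). Their summed CPM overlapped between the groups. Sox100B, a Sox factor of the adult stem cell lineage, had 37.8, 53.2 and 42 CPM in SvbAct against 4.87 and 8.70 CPM in Ctrl (2.71 ± 0.39, adjusted p = 0.00556). Sox21a, which drives enteroblasts into differentiation, had 29.2, 58.7 and 32.4 CPM in SvbAct and 2.67 and 3.14 CPM in Ctrl (3.78 ± 0.66, adjusted p = 0.012). Ets21C, a stress-responsive ETS factor of progenitors, had 134, 138 and 82.1 CPM in SvbAct and 35.5 and 44.0 CPM in Ctrl (1.57 ± 0.24, adjusted p = 0.0072), with exons that overlap nAChRbeta3. Every SvbAct library lay above both Ctrl libraries for these 3 genes. Summed over the 8 stem cell and enteroblast markers in the table, SvbAct had 287, 376 and 255 CPM and Ctrl had 117 and 129.7 CPM. Of the 7 tested, 5 rose (Delta, N, E(spl)mbeta-HLH, Sox21a and Sox100B), and klu and zfh2 did not pass. E(spl)m8-HLH had no count in Ctrl and at most 0.165 CPM in SvbAct, and esg was not analysed here. In bulk samples, a different share of cells of a type and a different amount of RNA per cell cannot be told apart, and the part of progenitors in the collected patches in these results was not tested. The Notch count was 1 without Ctrl 1 and 2 without Ctrl 2, and the count of progenitor factors was 0 and 1.

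**Figure D2:**
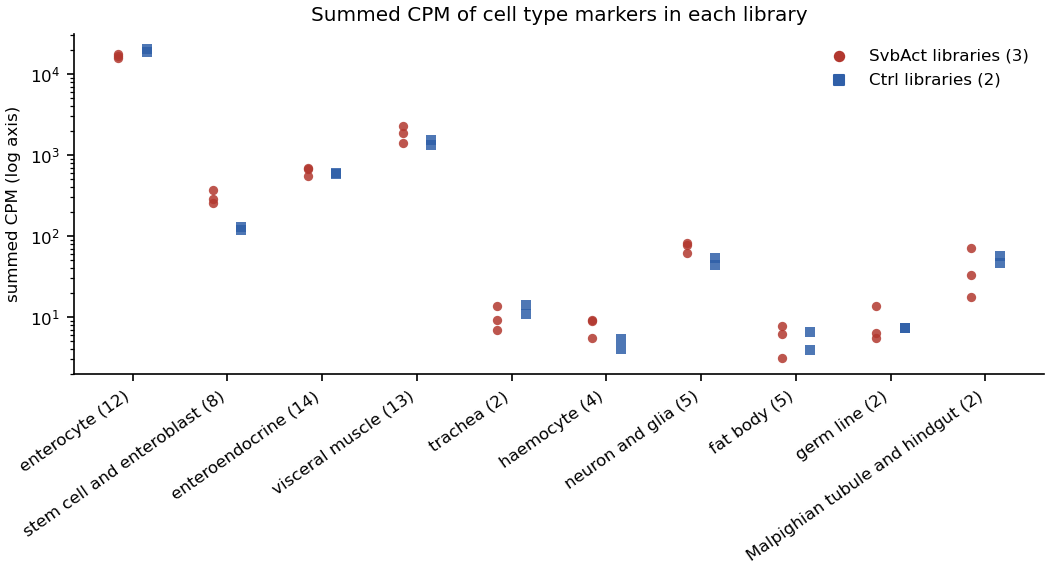
Summed CPM of the markers of 10 cell types (number in the table in brackets) in each SvbAct library (circles, left) and Ctrl library (squares, right), on a log axis. The stem cell and enteroblast sum is higher in the 3 SvbAct libraries (255 to 376 CPM) than in the 2 Ctrl libraries (117 and 129.7 CPM).

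The enterocyte transcription factor gene nub moved the same way as these. It had 1021, 1436 and 1240.3 CPM in SvbAct and 559 and 509.6 CPM in Ctrl (1.21 ± 0.20, adjusted p = 0.0107). Of 23 factors on the list of enterocyte identity it was the 1 past the threshold. That call was lost without Ctrl 1 or without Ctrl 2. The gut caudal-type and GATA factors on that list did not pass. Enteroendocrine markers summed to 548, 699 and 667 CPM in SvbAct and 586 and 602 CPM in Ctrl, and of the 14 the only one past the threshold was Syt4.

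Growth factor signalling genes showed rises at a few receptors, ligands and feedback inhibitors. On a list of 24 receptor tyrosine kinase genes and their ligands, chosen after the values were seen, 4 rose and 0 fell. The 4 were 16.7% of the list, against 1.95% of all genes. Egfr had 44.0, 47.6 and 37.4 CPM in SvbAct and 11.9 and 17.8 CPM in Ctrl (1.53 ± 0.23, adjusted p = 0.00631). Pvf1, a ligand of the PDGF and VEGF receptor family, had 197, 235 and 165 CPM in SvbAct and 60.1 and 62.5 CPM in Ctrl (1.70 ± 0.24, adjusted p = 0.00532). The insulin receptor gene InR had 390.1, 627 and 397 CPM in SvbAct and 184 and 233 CPM in Ctrl (1.17 ± 0.26, adjusted p = 0.0365). It was the single gene past the threshold among 25 of the insulin and TOR pathways. The receptor-like gene Wsck had 8.66, 9.40 and 8.38 CPM in SvbAct and 0.535 and 1.57 CPM in Ctrl (3.07 ± 0.52, adjusted p = 0.0111). The count of the receptor list was 0 without Ctrl 1 and 2 without Ctrl 2.

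Other pathways had 1 or 2 members past the threshold each. Socs36E, the feedback inhibitor of JAK/STAT, had 891, 847 and 756 CPM in SvbAct and 269 and 336 CPM in Ctrl (1.46 ± 0.21, adjusted p = 0.00584), as 1 of 13 genes of that pathway. In the JNK and stress list of 22, the kinase gene msn and the bZIP factor gene Atf3 rose (9.09%, against 1.95% of all genes). Atf3 had 1653, 1460.2 and 1629 CPM in SvbAct and 660.4 and 938 CPM in Ctrl (0.98 ± 0.22, adjusted p = 0.0393). Among 19 BMP and activin genes the members went opposite ways. The secreted BMP-binding protein gene cv-2 had 121, 242 and 107 CPM in SvbAct and 39.5 and 45.2 CPM in Ctrl (1.89 ± 0.39, adjusted p = 0.0262). The receptor gene wit had 53.1, 59.8 and 55.7 CPM in SvbAct and 98.7 and 99.1 CPM in Ctrl (-0.82 ± 0.16, adjusted p = 0.0194), with exons shared with dib. Both JNK calls were lost without Ctrl 1, Ctrl 2, SvbAct 1 or SvbAct 2, and that of Atf3 also without SvbAct 3. Of 24 Wingless genes, fz3, a receptor gene that is itself a Wingless target, fell to 46.8, 28.4 and 34.0 CPM in SvbAct, against 88.8 and 96.7 CPM in Ctrl (-1.35 ± 0.23, adjusted p = 0.0117). Without Ctrl 1 or Ctrl 2, none of the calls in this paragraph held except that of Socs36E without Ctrl 2.

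Some basement membrane, actin and polarity genes rose. Of 24 integrin and basement membrane genes, 4 rose (16.7%, against 1.95% of all genes) and 0 fell, and 13 had every SvbAct library above both Ctrl libraries (18.7% over all genes). The 3 subunit genes of the laminin trimer were among them. LanA (chr3L:6203831-6218022) had 93.1, 134 and 81.9 CPM in SvbAct and 15.3 and 16.3 CPM in Ctrl (2.70 ± 0.28, adjusted p = 0.000766). LanB1 had 34.8, 41.6 and 32.7 CPM in SvbAct and 10.6 and 9.36 CPM in Ctrl (1.86 ± 0.33, adjusted p = 0.0129). LanB2 had 16.2, 24.4 and 13.7 CPM in SvbAct and 4.28 and 3.20 CPM in Ctrl (2.27 ± 0.36, adjusted p = 0.00853). Each of these laminin genes was higher in every SvbAct library than in both Ctrl libraries. The integrin subunit gene mys, whose protein binds laminin, had 900.4, 1017 and 743 CPM in SvbAct and 361 and 442 CPM in Ctrl (1.14 ± 0.22, adjusted p = 0.0203). Visceral muscle, another maker of basement membrane, gave marker sums of 2302, 1851 and 1408 CPM in SvbAct and 1554 and 1317 CPM in Ctrl, ranges that overlap, with 0 of its 13 markers past the threshold. A longer sarcomere list of 27 genes summed higher, to 4295, 3714 and 2624 CPM in SvbAct and 2362 and 2391 CPM in Ctrl. On it 25 estimates were above 0 and 2 below. Its median log2 level over the Ctrl mean varied, at 0.75, 0.46 and -0.82 in SvbAct 1, 2 and 3. Haemocyte markers summed to 5.51, 9.26 and 9.07 CPM in SvbAct and 5.40 and 3.99 CPM in Ctrl over 4 genes, with Hml at most 0.798 CPM in SvbAct. Their part in the result was not tested. The count was 1 without Ctrl 1 and 1 without Ctrl 2.

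Of 33 brush border and actin genes, 4 rose (12.1%, against 1.95% of all genes) and 0 fell. Non-overlapping groups with SvbAct higher were found for 24 of the 33 (18.7% over all genes). The 4 that rose encode an actin and proteins that cross-link, cap or extend its filaments. Act42A, a cytoplasmic actin gene, had 528, 966 and 605 CPM in SvbAct and 149.8 and 261 CPM in Ctrl (1.77 ± 0.31, adjusted p = 0.0123). The filamin gene cher had 185, 267 and 110.3 CPM in SvbAct and 44.3 and 68.6 CPM in Ctrl (1.73 ± 0.34, adjusted p = 0.0219), with exons shared with cal1. Tropomodulin, which caps the slow ends of actin filaments and is encoded by tmod, had 181, 202 and 157 CPM in SvbAct and 80.6 and 83.3 CPM in Ctrl (1.13 ± 0.23, adjusted p = 0.0238). The actin elongation factor gene ena had 213, 224 and 129.7 CPM in SvbAct and 77.3 and 89.3 CPM in Ctrl (1.18 ± 0.26, adjusted p = 0.0336). On the sarcomere list of 27, which also holds tmod, no other gene passed. The actin count was 0 without Ctrl 1, 1 without Ctrl 2, and 2 without SvbAct 1 or SvbAct 2.

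Of 36 septate junction and polarity genes, 30 had an estimate above 0, as did 4295 of the 8775 genes tested. Of the 36, 3 rose (8.33%, against 1.95% of all genes). The apical scaffold genes baz and sdt were among them. The Par complex gene baz had 303, 295 and 238 CPM in SvbAct and 123 and 146 CPM in Ctrl (1.05 ± 0.22, adjusted p = 0.0281). The Crumbs partner gene sdt had 167, 225 and 157 CPM in SvbAct and 96.5 and 94.8 CPM in Ctrl (0.93 ± 0.21, adjusted p = 0.0356). The adhesion molecule gene Nrg had 86.0, 112 and 70.3 CPM in SvbAct and 34.7 and 48.6 CPM in Ctrl (1.10 ± 0.26, adjusted p = 0.0482). This count was 0 without Ctrl 1, Ctrl 2, SvbAct 1 or SvbAct 2. Of 12 known epidermal Svb target genes that could be tested, 11 had an estimate above 0 (median 0.89) and 0 passed the threshold. Unadjusted p (edgeR) was under 0.05 for 5 of the 12, and for 1523 of the 8775 genes tested. For 7 of the 12, every SvbAct library lay above both Ctrl libraries (18.7% over all genes).

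Some cell surface molecules best known from axon guidance and synaptic matching rose. On a list of 75 such genes, chosen after the values were seen, 13 rose (17.3%, against 1.95% of all genes). Of the same list 1 fell (1.33%, against 1.49%). The median log2 fold change was 0.51, against -0.01 over all genes. Dscam1, an immunoglobulin receptor gene with many splice forms, had 88.3, 98.4 and 79.1 CPM in SvbAct and 26.1 and 23.1 CPM in Ctrl (1.85 ± 0.21, adjusted p = 0.00181). The cadherin gene CadN2 had 62.2, 51.9 and 33.2 CPM in SvbAct and 5.08 and 7.67 CPM in Ctrl (2.95 ± 0.44, adjusted p = 0.00612). Both lay several-fold above their controls in each library. Cirl, which encodes the adhesion receptor latrophilin, had 101, 135 and 94.1 CPM in SvbAct and 43.4 and 40.5 CPM in Ctrl (1.39 ± 0.21, adjusted p = 0.00612). DIP-alpha, whose protein binds members of the Dpr family, had 17.4, 19.8 and 8.95 CPM in SvbAct and 2.46 and 1.75 CPM in Ctrl (2.86 ± 0.44, adjusted p = 0.00695). The other members past the threshold were Nrg, robo2, Sema2a, Sema2b, trn, dpr2, Ten-a, kon and plum. Against the rest, dpr10, a Dpr family gene, fell to 1.60, 2.37 and 3.25 CPM in SvbAct, against 15.0 and 23.4 CPM in Ctrl (-2.99 ± 0.40, adjusted p = 0.00398). Exons of Dscam1, DIP-alpha, robo2, Ten-a and kon overlap other genes. The sum of 5 markers of neurons and glia was also higher, at 78.7, 83.3 and 61.1 CPM in SvbAct and 43.8 and 53.8 CPM in Ctrl. None of the 5 passed the threshold, and elav had 50.3, 45.3 and 33.1 CPM in SvbAct and 17.3 and 27.5 CPM in Ctrl. Syt1 and nSyb had estimates below 0. On a longer list of 9 neuron and glia genes tested, nrv3 fell and 0 rose. The sum of that list ran the other way, at 173.6, 152.1 and 125.7 CPM in SvbAct and 223.1 and 202.9 CPM in Ctrl. The part of neurons and glia in the result was not tested. The count of members that rose was 1 without Ctrl 1 and 2 without Ctrl 2.

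Some replication and mitosis genes rose. Of 63 cell cycle genes, 5 rose, 0 fell, 47 had an estimate above 0 and 32 had non-overlapping groups with SvbAct higher, with a median log2 fold change of 0.92. Over all genes, 1.95% rose, 4295 of 8775 had an estimate above 0 and 18.7% did not overlap with SvbAct higher. The summed level of the list ran the other way, at 2295, 2427 and 2364 CPM in SvbAct and 2584 and 2738 CPM in Ctrl. SMC2, a condensin subunit gene, had 105, 71.2 and 88.1 CPM in SvbAct and 4.71 and 2.66 CPM in Ctrl (4.57 ± 0.47, adjusted p = 0.000766). The replication clamp gene PCNA had 3.53, 8.42 and 4.90 CPM in SvbAct and 0.267 and 0.785 CPM in Ctrl (3.41 ± 0.67, adjusted p = 0.0221). The helicase subunit gene Mcm7 had 5.29, 9.88 and 5.19 CPM in SvbAct and 1.66 and 1.33 CPM in Ctrl (2.17 ± 0.46, adjusted p = 0.0299), in a locus shared with an antisense gene. Both were low in Ctrl and higher in each SvbAct library. The chromosomal passenger gene Incenp had 3.20, 2.37 and 2.22 CPM in SvbAct and 0.0535 and 0.181 CPM in Ctrl (4.42 ± 0.98, adjusted p = 0.0364). The fifth member was the checkpoint gene Claspin (2.36 ± 0.56, adjusted p = 0.0463). Stem cell and enteroblast markers moved with this group, as given above, and their part in it was not tested. The count was 1 without Ctrl 1, 1 without Ctrl 2, 2 without SvbAct 1, 1 without SvbAct 2 and 3 without SvbAct 3.

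**Figure D3:**
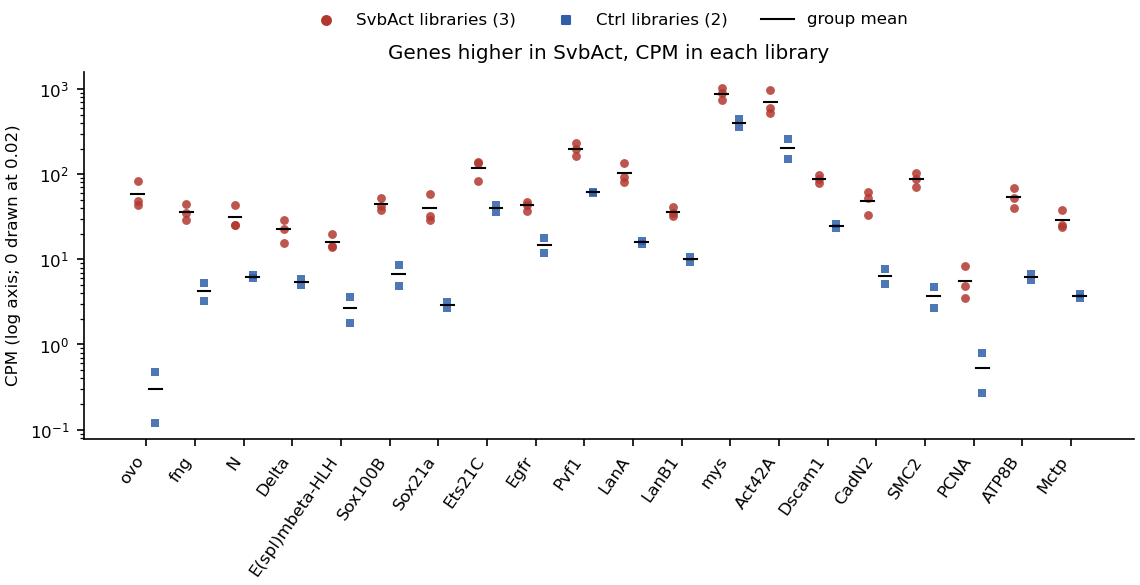
CPM on a log axis of 20 genes that rose, in each SvbAct library (circles, left of each pair) and each Ctrl library (squares, right), with the group mean as a bar. The groups do not overlap for any of the 20, as for every gene past the threshold. The widest gap is that of ovo, at 43.5 to 82.8 CPM in SvbAct against 0.121 and 0.481 CPM in Ctrl.

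Other genes that rose were on no list. ATP8B, a flippase gene, had 52.4, 68.7 and 40.6 CPM in SvbAct and 5.67 and 6.71 CPM in Ctrl (3.12 ± 0.31, adjusted p = 0.000726). Mctp, which encodes an endoplasmic reticulum protein with calcium-binding C2 domains, had 23.9, 37.7 and 25.4 CPM in SvbAct and 3.53 and 3.93 CPM in Ctrl (2.96 ± 0.30, adjusted p = 0.000766). A kinesin gene for axonal transport, unc-104, had 129, 202 and 152 CPM in SvbAct and 54.1 and 58.6 CPM in Ctrl (1.51 ± 0.20, adjusted p = 0.00441). Each lay above both Ctrl libraries in every SvbAct library. The ferlin gene mfr, known for its role in sperm, had 33.9, 54.0 and 30.5 CPM in SvbAct, whereas its Ctrl libraries held 0 and 1 counts. Tep2, a thioester protein gene of insect immunity, had 14.2, 19.7 and 18.4 CPM in SvbAct and 2.30 and 3.44 CPM in Ctrl (2.60 ± 0.36, adjusted p = 0.00446). CG7720 had 48.9, 22.6 and 42.1 CPM in SvbAct and 0.321 and 1.87 CPM in Ctrl (5.13 ± 0.64, adjusted p = 0.00312).

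Immune, matrix and glycosylation lists had few members past the threshold. Of 26 genes of antiviral RNA interference and STING signalling, blanks and cGlr1 rose (7.69%, against 1.95% of all genes). Of the pair, cGlr1 had 23.3, 32.4 and 27.7 CPM in SvbAct and 6.63 and 5.68 CPM in Ctrl (2.17 ± 0.37, adjusted p = 0.0116). The gene blanks, whose protein binds double-stranded RNA in the testis, had no count in Ctrl and 12.1, 5.99 and 14 CPM in SvbAct, at least 62.7-fold higher against a floor of 3 counts per library. Of 22 genes of immune recognition and the IMD pathway, 0 passed in either direction. In edgeR's quasi-likelihood test 3 of them had an unadjusted p under 0.05, as did 1523 of the 8775 genes tested. PGRP-SC2 had 270.2, 157 and 275 CPM in SvbAct and 345 and 442 CPM in Ctrl. Of 49 protein glycosylation genes, a list chosen after the values were seen, 5 rose (10.2%, against 1.95% of all genes): fng, FucTA, Gmd, Pgant3 and alpha-Man-Ia. FucTA, the fucosyltransferase gene of the neural HRP epitope, had 9.65, 20.5 and 6.16 CPM in SvbAct and 0.374 and 1.15 CPM in Ctrl (3.99 ± 0.86, adjusted p = 0.0334), and it overlaps Msh6. Gmd, which makes the fucose donor, had 61.9, 62.3 and 71.7 CPM in SvbAct and 35.1 and 43.2 CPM in Ctrl (0.74 ± 0.17, adjusted p = 0.0391). The glycosylation count was 0 without Ctrl 1, 1 without Ctrl 2, and 3 without SvbAct 1 or SvbAct 2. Of 27 tetraspanin genes, 23 had an estimate above 0 (4295 of 8775 over all genes). Past the threshold Tsp42Ee and Tsp42El rose (7.41%, against 1.95% of all genes). The mucin gene Muc30E was the 1 of 22 peritrophic matrix genes past the threshold (2.53 ± 0.59, adjusted p = 0.045). The calls of cGlr1, Tsp42Ee, Tsp42El and Muc30E were lost without Ctrl 1 or without Ctrl 2. Those of Tsp42El and Muc30E were also lost without SvbAct 1 or SvbAct 2.

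Jonah proteases and alkaline phosphatases held the largest shares of members that fell among the lists described here. Of 16 Jonah genes, which encode serine proteases secreted into the gut lumen, 8 fell (50%, against 1.49% of all genes) and 0 rose. Their summed level was 20927, 25488 and 23340 CPM in SvbAct and 53905 and 42841 CPM in Ctrl. Jon25Biii had 3976, 4798 and 5656 CPM in SvbAct and 15277 and 11171 CPM in Ctrl (-1.46 ± 0.25, adjusted p = 0.0124). Jon65Ai had 177, 255 and 351 CPM in SvbAct and 1124 and 1085 CPM in Ctrl (-2.08 ± 0.29, adjusted p = 0.00446). Jon44E had 66.6, 111 and 148 CPM in SvbAct and 548 and 567 CPM in Ctrl (-2.36 ± 0.29, adjusted p = 0.00292). For each of them every SvbAct library lay below both Ctrl libraries. The members differed among themselves, since Jon66Ci, Jon66Cii, Jon74E and Jon65Aiii had estimates above 0 that did not pass, such as 252, 769.5 and 413 CPM in SvbAct against 110.1 and 122.6 CPM in Ctrl for Jon66Ci. Jonah genes are close copies of each other, so reads may be split among them. The count that fell was 4 without Ctrl 1 and 5 without Ctrl 2.

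Alkaline phosphatases are enzymes of the brush border. Of the 6 genes tested, 6 had estimates below 0, with a median log2 fold change of -2.81. Of them, 3 fell past the threshold (50%, against 1.49% of all genes). Alp10 (chr3L:5592741-5595272) had 46.9, 107 and 65.8 CPM in SvbAct and 556 and 621 CPM in Ctrl (-3.01 ± 0.29, adjusted p = 0.000582). Its neighbour Alp9 (chr3L:5595542-5597422) had 52.2, 91.2 and 59.4 CPM in SvbAct and 455 and 455 CPM in Ctrl (-2.75 ± 0.34, adjusted p = 0.0029). Alp4 had 0.496, 0.0696 and 0.285 CPM in SvbAct, but 0.749 and 29.4 CPM in Ctrl, so the controls differed widely (-5.65 ± 1.22, adjusted p = 0.0334). Without Ctrl 2 the log2 fold change of Alp4 was -1.36 (edgeR adjusted p = 0.716), and it also missed the threshold without any 1 of the SvbAct libraries.

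Other enzymes of carbohydrate and protein digestion changed in both directions. Amy-d, an amylase gene with a near-identical copy, had 34.9, 18.8 and 31.1 CPM in SvbAct and 202 and 232 CPM in Ctrl (-2.94 ± 0.46, adjusted p = 0.00798). The maltase gene Mal-A6 went the other way, with 296, 277 and 228 CPM in SvbAct and 58.9 and 36.5 CPM in Ctrl (2.48 ± 0.53, adjusted p = 0.0308). They were the 2 of 25 maltases, amylases and glycosidases past the threshold (8%, against 3.44% of all genes). Among 16 trypsins and chymotrypsins, lambdaTry fell to 243, 349.8 and 283 CPM in SvbAct, against 491 and 546 CPM in Ctrl (-0.83 ± 0.20, adjusted p = 0.0482). Phae2 had 267, 251 and 189 CPM in SvbAct and 77.8 and 81.2 CPM in Ctrl (1.57 ± 0.37, adjusted p = 0.0484), and Try29F rose with a wide spread, at 179, 106 and 468 CPM in SvbAct and 60.5 and 36.1 CPM in Ctrl (adjusted p = 0.0498). The solute carrier gene SLC5A11, at 33.8, 35 and 28.6 CPM in SvbAct and 48.2 and 66.4 CPM in Ctrl, was 1 of 18 sugar transporters that passed (-0.82 ± 0.18, adjusted p = 0.0373). None of these carbohydrate and protein digestion calls held without Ctrl 1 or without Ctrl 2, and that of SLC5A11 was lost with any 1 of the 5 libraries left out.

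Lipid handling genes fell at the lipase, at a sterol-binding protein and at a lipoprotein receptor. Of 40 genes for lipid digestion, storage and export, 3 fell (7.5%) and 1 rose (2.5%), against 1.49% and 1.95% of all genes. The gene mag encodes the main secreted lipase of the fly gut, which also acts on cholesterol esters. It had 1668, 807 and 2005 CPM in SvbAct and 6437 and 5827 CPM in Ctrl (-2.04 ± 0.33, adjusted p = 0.00853). Npc2f, of a family of sterol-binding proteins, had 9.10, 23.9 and 15.6 CPM in SvbAct and 95 and 57.6 CPM in Ctrl (-2.24 ± 0.43, adjusted p = 0.0209). Its relative Npc2a went the other way, with 15.1, 23.2 and 14.9 CPM in SvbAct and 3.37 and 3.81 CPM in Ctrl (2.30 ± 0.32, adjusted p = 0.00446). The lipoprotein receptor gene LpR1 had 60.2, 62.5 and 47.2 CPM in SvbAct and 136 and 86.8 CPM in Ctrl (-0.97 ± 0.22, adjusted p = 0.0371). The count that fell was 0 without Ctrl 1, 1 without Ctrl 2 and 1 without SvbAct 1.

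Of 36 genes of fatty acid oxidation and peroxisomes, a list chosen after the values were seen, 4 fell (11.1%, against 1.49% of all genes) and 2 rose, and 20 had non-overlapping groups with SvbAct lower (20% over all genes). The acyl-CoA oxidase gene Acox57D-p, for the entry step of peroxisomal oxidation, had 136, 133 and 157 CPM in SvbAct and 351 and 364 CPM in Ctrl (-1.33 ± 0.18, adjusted p = 0.00446). CG17544, a further gene of this oxidase family, rose instead, with 256, 337 and 161 CPM in SvbAct and 45.5 and 57.1 CPM in Ctrl (2.29 ± 0.29, adjusted p = 0.00372). Gnpat, of ether lipid synthesis in peroxisomes, had 159, 175 and 137 CPM in SvbAct and 56.0 and 81.0 CPM in Ctrl (1.20 ± 0.20, adjusted p = 0.00929). The count that fell was 1 without Ctrl 1 and 1 without Ctrl 2.

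In sugar use, 2 of 26 glycolysis genes rose (7.69%, against 1.95% of all genes) and 0 fell. The list had 13 estimates above 0 and 13 below, with a median log2 fold change of -0.01. The hexokinase gene Hex-A had 320.5, 463 and 416 CPM in SvbAct and 168 and 196 CPM in Ctrl (1.14 ± 0.23, adjusted p = 0.0249). Gpo1, the mitochondrial enzyme of the glycerol phosphate shuttle, had 185, 235 and 246 CPM in SvbAct and 129 and 111 CPM in Ctrl (0.88 ± 0.18, adjusted p = 0.0273). Neither was past the threshold when Ctrl 1, Ctrl 2 or SvbAct 2 was left out, and without SvbAct 3 only Hex-A passed.

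Detoxification families changed in both directions. Of 60 cytochrome P450 genes, 7 fell (11.7%) and 1 rose (1.67%), against 1.49% and 1.95% of all genes. Cyp4ac1 had 55.4, 46.2 and 66.0 CPM in SvbAct and 95.9 and 123 CPM in Ctrl (-0.97 ± 0.18, adjusted p = 0.0185), while Cyp6a14 had 133, 97.2 and 86.7 CPM in SvbAct and 36.6 and 31.8 CPM in Ctrl (1.63 ± 0.23, adjusted p = 0.00536). Cyp6a18 was at 0 in SvbAct and at 1.02 and 17.4 CPM in Ctrl, so the controls differed widely from each other. The steroid synthesis gene spo, which lies beside Alp10, fell to 1.49, 1.74 and 2.74 CPM in SvbAct, against 8.82 and 17.8 CPM in Ctrl (-2.74 ± 0.53, adjusted p = 0.0208). Its exons overlap another gene. Of 29 UDP-glycosyltransferase genes, which conjugate sugars to small molecules, 5 fell (17.2%) and 3 rose (10.3%). Ugt35C1 had 32.1, 24.6 and 29.9 CPM in SvbAct and 231 and 181 CPM in Ctrl (-2.84 ± 0.27, adjusted p = 0.000561), and Ugt35E1 on the same chromosome arm had 12, 5.99 and 15.1 CPM in SvbAct and 53.5 and 53.2 CPM in Ctrl (-2.27 ± 0.31, adjusted p = 0.00446). Ugt301D1 had 43.6, 92.2 and 65.9 CPM in SvbAct and 11.5 and 16.4 CPM in Ctrl (2.27 ± 0.34, adjusted p = 0.00601). The P450 count that fell was 1 without Ctrl 1, 0 without Ctrl 2, 3 without SvbAct 1 and 4 without SvbAct 2. The glycosyltransferase count that fell was 2 without Ctrl 1 and 3 without Ctrl 2.

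Of 30 glutathione transferase genes, 3 of the epsilon class rose (10%, against 1.95% of all genes) and the sigma class gene fell (3.33%, against 1.49%). GstE5 had 32.9, 40.2 and 44.7 CPM in SvbAct and 6.79 and 13.5 CPM in Ctrl (1.95 ± 0.35, adjusted p = 0.0135). GstE3 and GstE7, its neighbours in the same cluster, had log2 fold changes of 0.93 ± 0.20 and 0.87 ± 0.20 (adjusted p = 0.0346 and 0.0415). GstS1 had 51.1, 43.2 and 44.7 CPM in SvbAct and 92.6 and 89.2 CPM in Ctrl (-0.97 ± 0.18, adjusted p = 0.0164). The count that rose was 0 without Ctrl 1, 1 without Ctrl 2, SvbAct 1 or SvbAct 2, and 2 without SvbAct 3. Among 24 antioxidant genes the 2 past the threshold both fell (8.33%, against 1.49% of all genes). Gclm, a subunit of the rate-limiting enzyme of glutathione synthesis, had 140.3, 112 and 145 CPM in SvbAct and 361 and 276 CPM in Ctrl (-1.27 ± 0.20, adjusted p = 0.00853). Sod3, an extracellular superoxide dismutase, had 28.8, 17.5 and 29.4 CPM in SvbAct and 63.3 and 62.8 CPM in Ctrl (-1.32 ± 0.22, adjusted p = 0.00973). The antioxidant count was 0 without Ctrl 1 and 1 without Ctrl 2.

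Channels, carriers and regulators also fell in part. The chloride channel gene ClC-a had 82.3, 95.8 and 123 CPM in SvbAct and 363 and 236 CPM in Ctrl (-1.58 ± 0.28, adjusted p = 0.0125). The glycerol channel gene Eglp2 had 25.1, 31.6 and 28.5 CPM in SvbAct and 82.7 and 81.3 CPM in Ctrl (-1.53 ± 0.29, adjusted p = 0.0185). On the same list of 45 ion channels and aquaporins, Ih, a hyperpolarization-gated channel gene, rose, with 17.0, 22.9 and 15.9 CPM in SvbAct and 3.48 and 2.96 CPM in Ctrl (2.53 ± 0.35, adjusted p = 0.00446). The zinc transporter gene ZnT77C had 35.2, 30.5 and 33.5 CPM in SvbAct and 70.0 and 62.4 CPM in Ctrl (adjusted p = 0.0129). The juvenile hormone receptor gene Met had 36.2, 35.6 and 32.9 CPM in SvbAct and 60.2 and 51.8 CPM in Ctrl (-0.68 ± 0.16, adjusted p = 0.044). The call of Met was lost with any 1 of the 5 libraries left out, and without Ctrl 1 none of the genes in this paragraph passed. Without Ctrl 2, ClC-a alone of them passed.

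**Figure D4:**
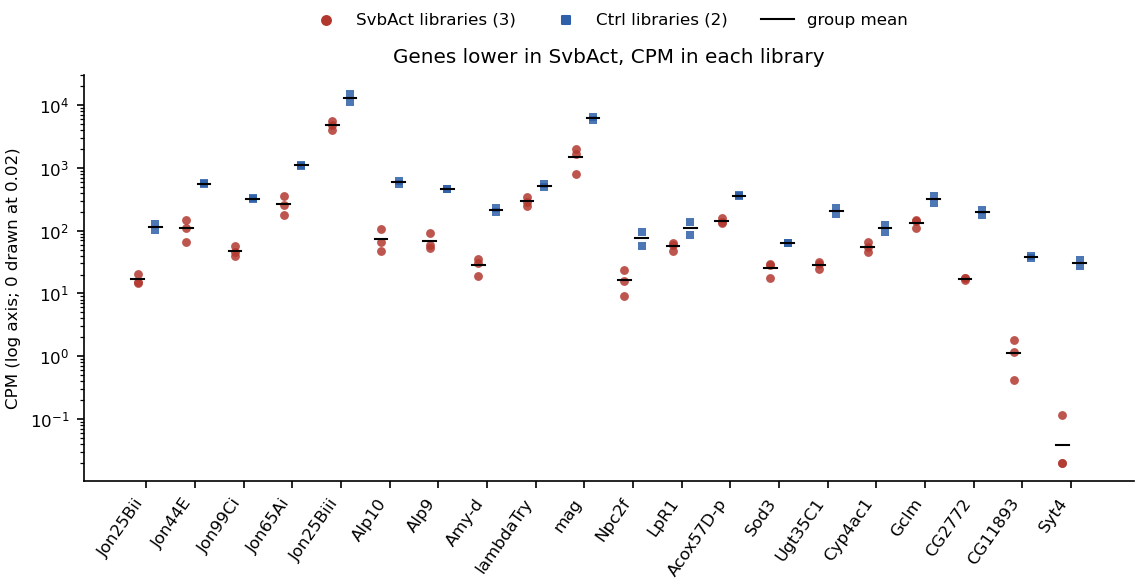
CPM on a log axis of 20 genes that fell, in each SvbAct library (circles, left of each pair) and each Ctrl library (squares, right), with the group mean as a bar. The groups do not overlap for any of the 20, as for every gene past the threshold. Values of 0 are drawn at 0.02.

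Further genes that fell follow, most of them on no list. CG2772 had 17.8, 16.1 and 17.4 CPM in SvbAct and 217 and 179.7 CPM in Ctrl (-3.53 ± 0.23, adjusted p = 5.56e-05). CG11893 had 1.16, 0.418 and 1.82 CPM in SvbAct and 36.3 and 39.1 CPM in Ctrl (-5.02 ± 0.52, adjusted p = 0.000766), and CG16854 had 0.882, 1.11 and 1.20 CPM in SvbAct and 18.5 and 23.5 CPM in Ctrl (-4.30 ± 0.36, adjusted p = 0.000207). These were nearly silent in all 3 SvbAct libraries. Mipp1, an inositol polyphosphate phosphatase gene, had 121, 121 and 137 CPM in SvbAct and 290.3 and 302 CPM in Ctrl (-1.23 ± 0.15, adjusted p = 0.0028). CG14406 was at 0 in every SvbAct library and at 49.1 and 66.0 CPM in Ctrl, at least 317-fold lower against a floor of 3 counts per library. Syt4, a synaptotagmin gene, had 0, 0 and 0.114 CPM in SvbAct and 27.3 and 33.6 CPM in Ctrl.

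Several large lists of household genes had 0 members with an adjusted p under 0.05 by edgeR (quasi-likelihood). Of 79 cytosolic ribosomal protein genes, 75 had estimates below 0 (median -0.29), as did 4480 of the 8775 genes tested. Of the 79, 37 had non-overlapping groups with SvbAct lower (20% over all genes). In the same test 13 of them had an unadjusted p under 0.05, as did 1523 of the 8775 genes tested. RpL3 had 1762, 1632 and 1808 CPM in SvbAct and 3083 and 2182 CPM in Ctrl (-0.60 ± 0.21, adjusted p = 0.162). Of 70 nuclear genes of oxidative phosphorylation, 56 had estimates below 0 (median -0.18) and 9 had an unadjusted p under 0.05. ATPsynC, a subunit of ATP synthase, had 1494, 1954 and 1441 CPM in SvbAct and 1867 and 1739 CPM in Ctrl. Of 28 heat shock proteins and chaperones, 25 had estimates below 0 (median -0.34) and 6 had an unadjusted p under 0.05. Hsp83, the Hsp90 chaperone, had 2465, 1582 and 2029 CPM in SvbAct and 2422 and 2856 CPM in Ctrl, ranges that overlap.

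The RNAiSvb libraries, which carry a different UAS transgene, had similar levels of some of these genes. CG14406 was at 0 in all 3 RNAiSvb libraries, Syt4 was at most 0.0483 CPM, and CG16854 was at 0.318 to 0.628 CPM. Ugt49B1 had 130.1, 158 and 173 CPM in SvbAct and 102, 119 and 91.8 CPM in RNAiSvb, against 1.44 and 1.27 CPM in Ctrl. The Jonah genes summed to 20927, 25488 and 23340 CPM in SvbAct and to 25852, 32192 and 22230.2 CPM in RNAiSvb, against 53905 and 42841 CPM in Ctrl. The alkaline phosphatases summed to 713, 1198 and 1056 CPM in SvbAct and to 969.5, 1315 and 1379 CPM in RNAiSvb, against 2545 and 2381 CPM in Ctrl. Both transgenic groups are set against the same 2 Ctrl libraries here, so an effect of the activator and a difference of the Ctrl libraries or their background cannot be told apart for such genes. Other members separated the transgenic groups: SMC2 had 4.59, 2.95 and 8.56 CPM in RNAiSvb, Sox21a 7.90, 1.37 and 3.38 CPM, LanA 29.2, 18.7 and 26.3 CPM and ATP8B 11.4, 7.35 and 8.07 CPM, all below the lowest SvbAct library. Of these, LanA and ATP8B also lay above both Ctrl libraries in every RNAiSvb library, whereas SMC2 and Sox21a overlapped Ctrl. Further genes that rose lay above both Ctrl libraries in every RNAiSvb library. Among them were N (12.8, 11.3 and 9.43 CPM in RNAiSvb) and Ets21C (67.8, 83.0 and 69.1 CPM). So were nub (861, 703 and 821 CPM) and Mal-A6 (233, 603 and 143 CPM). The same limit of the shared Ctrl libraries holds for them. The difference between SvbAct and RNAiSvb was not tested.

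**Figure D5:**
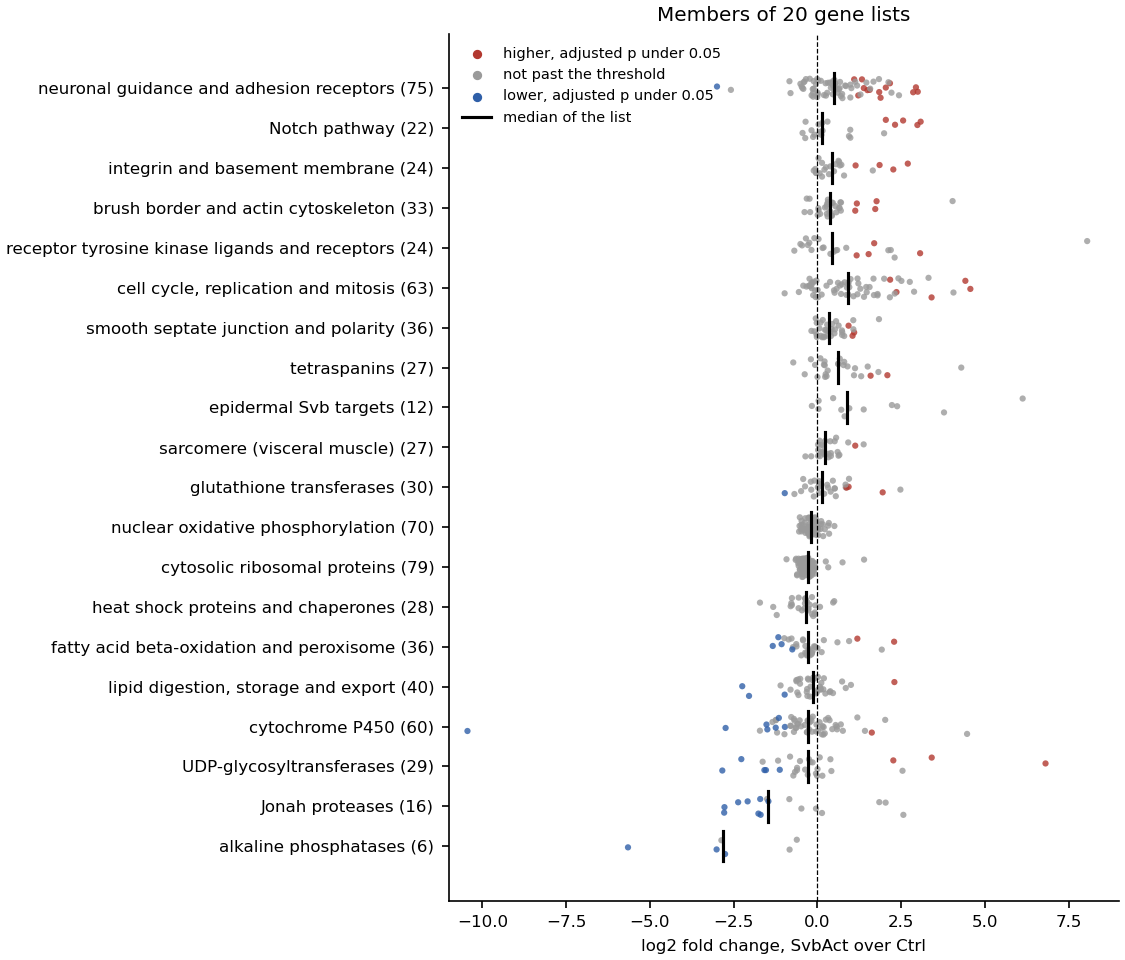
Log2 fold changes of SvbAct over Ctrl for the tested members (points) of 20 gene lists, with the number tested in brackets, coloured by whether they passed adjusted p of 0.05; bars mark list medians and the dashed line the median of all genes. Jonah proteases and alkaline phosphatases lie left of the line (medians -1.48 and -2.81), and guidance, basement membrane and cell cycle lists lie right of it (0.51, 0.44 and 0.92).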

How the data were processed

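RNA of strained posterior midgut patches was sequenced as 100 nt single reads. Per the submitters' processing notes, the tools were FastQC 0.11.5, STAR 2.5.2b, HTSeq 0.6.0 and edgeR, with the dm6 genome; the annotation, strand setting and any gene filter are not given in the sources used here. The authors deposited raw counts per gene for each library. The authors' fold changes and p-values were not used.

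The table held 9177 genes, of which 9060 were placed by FlyBase gene ID in the BDGP6.54 annotation (Ensembl release 115), the source of the 1-based coordinates. Counts of all 8 libraries were fitted with edgeR 4.0.16 in R 4.3.3 (filterByExpr, TMM factors, quasi-likelihood test, Benjamini-Hochberg adjustment), and SvbAct was contrasted with Ctrl. The filter left 8775 genes and set aside 402. CPM used TMM-scaled library sizes. Values after ± are standard errors, computed as the log2 fold change over the square root of F. The procedure was tested on simulated data. Intervals and floors (3 counts per library) cover counting error only. Replicates were collected on different days from pooled animals.

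Members and lists were chosen with earlier results of these data known, and 4 lists were added after the values were seen. Named genes were ovo, up to 4 called members per list by smallest p (2 of the most abundant where none was called), and per direction 8 called genes on no list; some further members were named after their values were seen. Alternatives were DESeq2 1.42.0, a likelihood ratio test, other scalings, filters and thresholds, a fit of SvbAct and Ctrl only, a replicate block, and leaving out each library. Without 1 Ctrl library, the lone Ctrl library is assumed to vary like the other groups. A result for 1 gene is not reported here.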

Additional observations from a re-analysis of the deposited data

How the results depend on the processing

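The number of genes changed was 302 (171 higher, 131 lower). It was 641 with DESeq2's Wald test (401 higher, 240 lower), 610 with edgeR's likelihood ratio test (369 higher, 241 lower) and 89 at an adjusted p under 0.01 (43 higher, 46 lower); the cause was not tested for the tests. With 1 library left out at a time it ranged from 48 to 272 in all, from 14 to 153 higher and from 34 to 119 lower, with the fewest calls without Ctrl 1. Of the 302 genes, 32 were called with each of the 5 libraries left out in turn (10 higher, 22 lower). The number stayed within 1.5 times of 302 with DESeq2 size factors (295), with library totals (319), when every gene with a count was tested (303), when each library had to hold 10 counts or more (262), and with SvbAct and Ctrl alone (312). Library totals put the median of all log2 fold changes at 0.08, against -0.01, and turned the sign of the near-zero medians of 11 lists, among them the insulin, Wingless and ion channel lists. Replicate numbers were not shown to pair the libraries: deviations of the same-numbered libraries correlated at 0.0661 (number 1) and 0.144 (number 2). With the replicate block, 269 genes were called (150 higher, 119 lower), of which 224 were among the 302. With 2 Ctrl libraries, genes near the threshold depend on each of them.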

Other observations

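Calls were spread unevenly over control levels. Of 732 genes under 1 CPM in Ctrl, 3.01% rose and 0% fell, while of 1853 genes over 100 CPM in Ctrl, 1.19% rose and 3.08% fell. These classes were cut on the Ctrl level, which is also the base of the fold change. Genes near 0 CPM in Ctrl have little room to fall, so the direction there is largely set in advance. Genes that rose had a median exonic length of 2963 bases and genes that fell one of 1860 bases, against 2082 bases over all genes tested. By chromosome arm, the share of tested genes past the threshold was 4.24% on 2L, 3.57% on 2R, 2.90% on 3L, 3.41% on 3R and 3.35% on X.

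Neighbouring genes past the threshold in the same direction formed 15 runs, 14 of them without shared exons, holding 30 genes. The run of spo, Alp10 and Alp9 fell (chr3L:5590083-5597422), as did Jon25Biii and Jon25Bii (chr2L:4949941-4953136) and Jon65Aii and Jon65Ai (chr3L:6052321-6054443). The run of cGlr1, Gpo1 and Rif1 rose (chr2R:15855961-15869147). Of 218 antisense RNA genes tested, 165 had estimates above 0 (4295 of 8775 over all genes) and 3 fell past the threshold. Their libraries differed, with median log2 levels over the Ctrl mean of 0.39, -0.20 and 0.62 and summed levels of 929.8, 592 and 1206 CPM in SvbAct 1, 2 and 3, against sums of 779 and 827 CPM in Ctrl. Without a known strand setting, their reads cannot be told apart from those of the genes they overlap.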
